A study of Sus scrofa with 12 samples.

Results

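The microRNA (miRNA) miR-148a-3p, listed as ssc-miR-148a-3p, is 1 of the 252 mature pig miRNAs measured here in extracellular vesicles, small particles bounded by a membrane that cells shed into their medium. It was chosen for its smaller share of the miRNA counts in vesicles from cells grown on microcarriers, so its values on microcarriers are given below as a description, without a test. The vesicles came from bone marrow mesenchymal stromal cells of 4 juvenile Yucatan minipigs of wild-type genotype, whose cells had been expanded on plates and frozen at passage 3. Cells of each donor were grown by 3 culture methods, which gave 12 libraries, 1 per donor and method. Plate cultures were seeded at 5000 cells per cm2 in medium with 10% fetal bovine serum. In perfusion cultures, medium circulated at 4 mL/min over cells on a bioscaffold, and the labels give no serum content for it. In microcarrier cultures, cells were placed on small carrier particles in a spinner flask, without serum for the first 2 hours and with 10% serum afterwards. Vesicles of all 3 groups were collected by differential ultracentrifugation, and the labels do not say whether the serum had been cleared of its own vesicles. Vesicle RNA is a bulk sample, so fewer vesicles that carry a miRNA and less of it per vesicle cannot be told apart.

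miRNAs are short RNAs that pair with messenger RNAs, chiefly through a seed near their 5′ end, and lower the output of those messages. miR-148a-3p shares its seed with miR-148b-3p and miR-152, and in human and mouse cells the family is known to repress the DNA methyltransferase DNMT1. miR-148a is abundant in liver and in milk vesicles, and in human and mouse stromal cells it has been described as promoting the formation of fat cells. In the pig annotation of RefSeq (Sscrofa11.1) the hairpin gene MIR148A overlaps no other gene, MIR148B overlaps COPZ1 and MIR152 overlaps COPZ2, a pair of genes for coat protein subunits.

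The 252 listed miRNAs together held 264407 reads (plate, donor 2) to 3253003 reads (plate, donor 4) per library, recovered from the steps between the deposited values. Of these, 16796 to 236551 reads were miR-148a-3p, so counting error was small. The 95% Wilson interval of its share, which covers counting error only, was at most 0.186 percentage points wide. That widest interval was 6.26% to 6.45%, in plate donor 2. The 20 other stromal miRNAs that were listed summed to 606877 to 964628 normalized counts per library, and none was at 0 in every library.

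The level of miR-148a-3p, in normalized read counts, was 73148, 82750, 102053 and 96305 on plates for donors 1 to 4, with a mean of 88564 ± 13081 (SD, n = 4). In perfusion the same donors gave 64589, 83946, 78041 and 103558, with a mean of 82533 ± 16189 (SD, n = 4). On microcarriers they gave 63475, 60897, 53444 and 56026, with a mean of 58460 ± 4553 (SD, n = 4). All 4 microcarrier libraries lay below all 8 others, while the plate and perfusion values overlapped over most of their range. The gap was narrow in donor 1, whose perfusion library was 1.02 times its microcarrier library. The microcarrier libraries also differed least among themselves. Their highest value was 1.19 times their lowest, against 1.40 times on plates and 1.60 times in perfusion.

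The share of all normalized counts in the library that miR-148a-3p held was 6.76%, 6.35%, 8.77% and 7.27% on plates for donors 1 to 4 (mean 7.29% ± 1.06, SD, n = 4). In perfusion it was 6.08%, 6.44%, 7.39% and 8.55% (mean 7.11% ± 1.11, SD, n = 4). On microcarriers it was 5.37%, 4.54%, 4.40% and 4.08% (mean 4.60% ± 0.553, SD, n = 4). The share gave the same picture as the level: every microcarrier library was below every plate and perfusion library. By mean share, miR-148a-3p stood at place 2 on plates, place 4 in perfusion and place 5 on microcarriers. In single libraries it stood at places 2 to 4, 2 to 6 and 5 to 7.

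**Figure D1:**
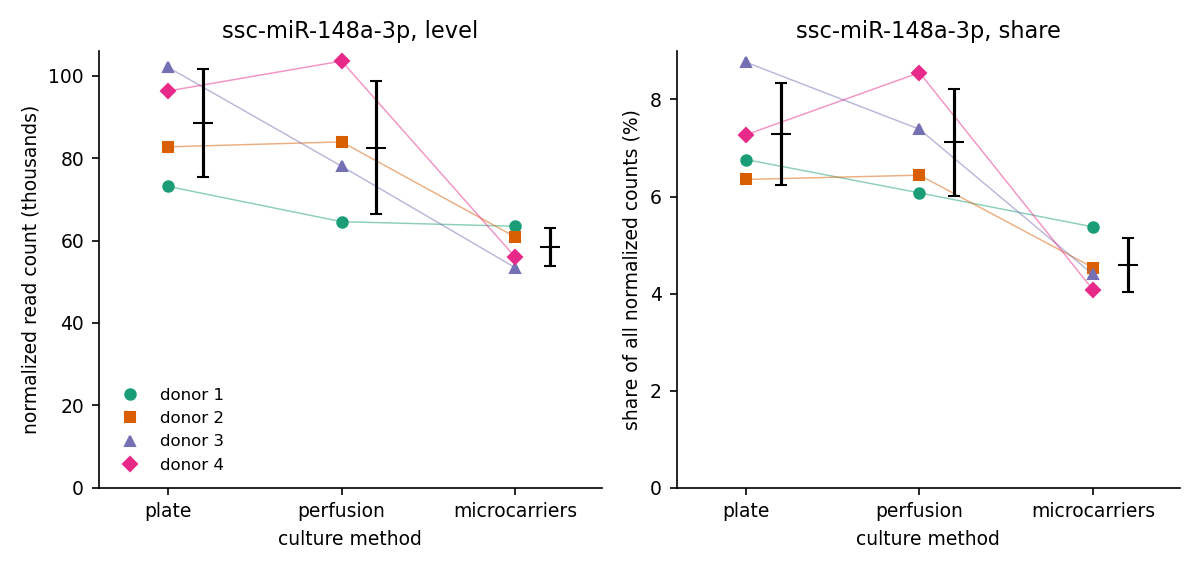
The level of miR-148a-3p in normalized read counts (left, axis in units of 1000) and its share of all normalized counts in percent (right), for each library by culture method. Coloured points joined by thin lines are the 4 donors, and black marks are the mean ± SD of 4 libraries; the microcarrier libraries, at 53444 to 63475 counts, sit below the other 8 in both panels.

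The places on either side of it were close to it within the spread of donors. On plates it came after miR-21-5p, the leading miRNA of every group, at 21.7% ± 4.18, and just before let-7i-5p at 6.95% ± 0.909 (SD, n = 4). In perfusion let-7i-5p was just above it at 7.47% ± 0.665, and miR-100 was next below at 5.18% ± 1.24 (SD, n = 4). On microcarriers let-7f-5p was just above it at 4.96% ± 0.716, and miR-100 just below at 4.59% ± 0.947 (SD, n = 4). The difference to each of these neighbours was smaller than their SD, except to miR-21-5p on plates and miR-100 in perfusion. Over all 12 libraries the share of miR-148a-3p was 6.33% ± 1.54, a coefficient of variation of 24.3%. Within a culture method that coefficient was smaller, at 14.5% for plates, 15.6% for perfusion and 12.0% for microcarriers. Among the 10 miRNAs with the highest mean share, let-7i-5p varied least over the 12 libraries (11.9%) and miR-27b-3p most (54.4%).

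The difference between microcarriers and plates was -0.59 ± 0.196 (SE) in log2 level, a plate level 1.51 times the microcarrier level. It had the same sign in all 4 donors, with within-donor log2 differences of -0.20, -0.44, -0.93 and -0.78 for donors 1 to 4. Donor 3 thus had about 1.91 times as much on plates as on microcarriers, and donor 1 only 1.15 times as much. In share, the 4 donors differed by -1.39, -1.82, -4.37 and -3.19 percentage points. The fitted difference of miR-148a-3p was the 49th lowest of 252, and the median over all 252 miRNAs was 0.11. In this comparison 2.38% of miRNAs passed an adjusted p of 0.05 (limma) in either direction, and 6.75% had all microcarrier levels below all plate levels. Nothing about miR-148a-3p is read from those backgrounds, because it was chosen on this difference.

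Perfusion exceeded microcarriers by 0.48 ± 0.196 (SE) in log2 level of miR-148a-3p, or 1.39 times. The within-donor differences were 0.03, 0.46, 0.55 and 0.89 for donors 1 to 4, and in share 0.701, 1.90, 2.99 and 4.47 percentage points. They had the same sign in all 4 donors but ranged from close to 0 in donor 1 to 1.85 times in donor 4. The median difference over all 252 miRNAs was -0.07, and 69 miRNAs had a higher difference than miR-148a-3p. In this comparison 15.5% of miRNAs passed the limma test and 11.5% had all microcarrier levels below all perfusion levels. This comparison shares its microcarrier libraries with the one against plates.

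Of the 252 miRNAs, 5 (1.98%) had all 4 microcarrier levels below all 8 others. miR-148a-3p was chosen for its smaller share on microcarriers, so nothing about it is read from this count. On shares the count was 6 of 252, 2.38%. Beside miR-148a-3p, the 5 by level were miR-28-5p, miR-744, miR-133a-3p and miR-769-3p, named after their values were seen. None of these 4 came near it in abundance, since the highest of them, miR-28-5p, had a mean share of 0.0362%.

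The comparison that did not choose miR-148a-3p is perfusion against plates. Its log2 difference there was -0.11 ± 0.196 (SE), with a 95% interval of -0.53 to 0.31 and an adjusted p of 0.727 (limma, Benjamini-Hochberg over 252 miRNAs). Donors 1 to 4 gave -0.18, 0.02, -0.39 and 0.10, lower in 2 donors and higher in the other 2. The interval covers a level in perfusion from about 0.692 to 1.24 times that on plates. In the same comparison 20.6% of the 252 miRNAs passed the test. The mean share differed by -0.175 percentage points (exact two-sided permutation of 4 against 4 libraries, p = 0.771, where the smallest possible p is 0.0286). Without perfusion donor 1 the log2 difference was 0.000746, and without plate donor 3, perfusion donor 1 or perfusion donor 2 the share difference became 0.318, 0.171 or 0.0494 points.

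The donors did not keep 1 order across cultures. On plates the level of miR-148a-3p was highest in donor 3, followed by donors 4, 2 and 1. In perfusion the order was donors 4, 2, 3 and 1, and on microcarriers it was donors 1, 2, 4 and 3. Donor 1 was therefore the lowest library on plates and in perfusion and the highest on microcarriers. Averaged over cultures, the 4 donors spanned 0.30 in log2 level, and the test for any difference between donors gave an adjusted p of 0.676 (limma). Donor effects passed that test for 8.33% of the 252 miRNAs.

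A share also moves with the other miRNAs in its denominator, chiefly miR-21-5p, which is abundant in stromal cells, and miR-27b-3p, known to restrain fat cell formation. With miR-21-5p left out of the denominator, miR-148a-3p held 9.35% ± 1.58 on plates, 9.83% ± 1.46 in perfusion and 6.33% ± 0.332 on microcarriers (n = 4, SD). With miR-27b-3p also left out, the shares were 10.2% ± 1.31, 10.5% ± 1.37 and 7.31% ± 0.609 (SD, n = 4). The 4 microcarrier libraries were below the other 8 in both, at no more than 8.16% against no less than 9.26% in the second. miR-148a-3p was chosen for its smaller share on microcarriers, so these separations, whatever the denominator, are descriptions. Per 100 counts outside the 10 leading miRNAs, miR-148a-3p had 26.4 ± 3.86 on plates, 27.2 ± 3.79 in perfusion and 17.1 ± 1.56 on microcarriers (n = 4, SD), again without overlap. Leaving miR-21-5p or all 10 leading miRNAs out changed the sign of the difference between perfusion and plates, from -0.175 to 0.481 percentage points or 0.838 per 100 counts.

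Between plates and microcarriers, miR-148a-3p had the largest negative difference in mean share of all 252 miRNAs, at -2.69 percentage points. All negative differences summed to -14.9 points. It was chosen as an abundant miRNA with a smaller share on microcarriers, so nothing is read from this place. In log2 level its difference was only the 49th lowest. The next largest negative differences in share were those of miR-143-3p (-2.62 points), let-7a (-2.29 points), miR-26a (-1.80 points) and miR-99a-5p (-1.13 points). miR-143-3p, a miRNA of smooth muscle and stromal cells, was lower in 4 of 4 donors and let-7a in 3 of 4. The largest positive differences were those of miR-21-5p (5.85 points) and miR-27b-3p (3.01 points), followed by miR-100 (1.32 points), miR-23a (0.792 points) and miR-23b (0.761 points). miR-23b and miR-27b come from 1 cluster of hairpins, as do miR-23a and miR-27a from another.

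Between microcarriers and perfusion, miR-148a-3p had the second largest positive difference, 2.52 points, after miR-143-3p at 3.85 points. miR-7-5p (0.899 points), miR-100 (0.588 points) and miR-99a-5p (0.488 points) followed. On the negative side stood miR-27b-3p at -5.06 points, ahead of miR-27a (-0.628 points), let-7f-5p (-0.592 points), let-7a (-0.584 points) and miR-221-3p (-0.488 points). Between plates and perfusion, miR-148a-3p was only 15th from the lowest, at -0.175 points. The 5 largest negative differences there were let-7a (-2.87 points), miR-27b-3p (-2.05 points), miR-26a (-1.94 points), let-7f-5p (-1.02 points) and miR-24-3p (-0.657 points). The 5 largest positive ones were miR-21-5p (5.94 points), miR-100 (1.91 points), miR-143-3p (1.23 points), miR-7-5p (0.904 points) and let-7i-5p (0.518 points). These differences in share are descriptions and were not tested. The places of miR-148a-3p in the comparisons with microcarriers go with the way it was chosen, so nothing is read from them.

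**Figure D2:**
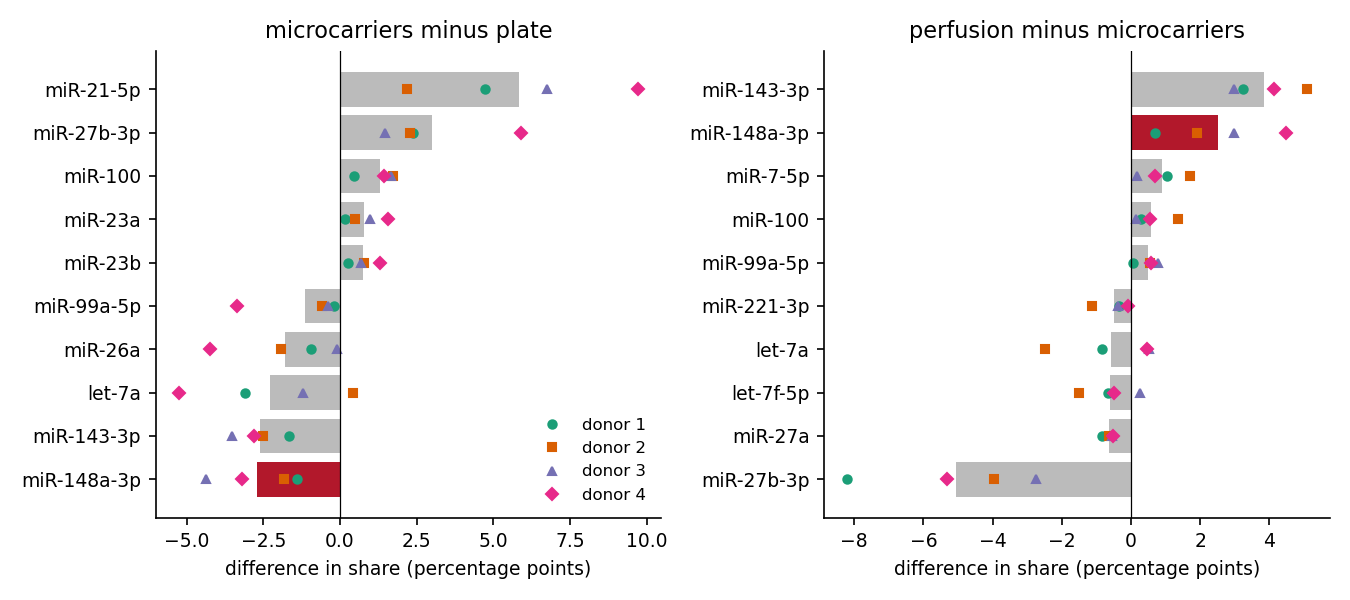
Differences in share of all normalized counts, in percentage points, between microcarriers and plates (left) and between perfusion and microcarriers (right), for the 5 miRNAs with the largest positive and the 5 with the largest negative mean difference. Bars are means over 4 donors, coloured symbols are single donors, and miR-148a-3p is drawn in red, at -2.69 points on the left and 2.52 points on the right.

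Expressed per count of miR-148a-3p, the leading miRNAs show how the balance of the profile differed between cultures. miR-21-5p had 3.01 ± 0.673 counts per count of miR-148a-3p on plates, 3.97 ± 0.713 in perfusion and 6.16 ± 1.72 on microcarriers (n = 4, SD). miR-27b-3p had 0.964 ± 0.654, 0.676 ± 0.388 and 2.07 ± 0.675 counts in the same order (SD, n = 4). The lowest microcarrier ratio of each, 3.82 and 1.08, lay inside the range of another culture, so these ratios overlapped between groups. Per count of let-7i-5p, miR-148a-3p had 1.06 ± 0.181, 0.949 ± 0.0781 and 0.628 ± 0.179 (SD, n = 4), also with overlap.

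The other members of its family had far lower levels. miR-148b-3p was at 2869, 2252, 3098 and 1969 normalized counts on plates, 3495, 2768, 2883 and 3682 in perfusion and 2287, 2486, 2088 and 2428 on microcarriers for donors 1 to 4. Its plate values overlapped with those of both other cultures. Every microcarrier library, at no more than 2486, was below every perfusion library, at no less than 2768, as held for 11.5% of the 252 miRNAs. Its log2 differences were 0.35 ± 0.227 (SE) for perfusion against plates, -0.11 ± 0.227 for microcarriers against plates and 0.46 ± 0.227 for perfusion against microcarriers. None passed, with adjusted p-values of 0.320, 0.810 and 0.203 (limma).

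miR-152 was at 5205, 7971, 9148 and 9163 normalized counts on plates, 4644, 5012, 4066 and 4387 in perfusion and 7135, 4545, 5192 and 6664 on microcarriers. Every perfusion library was below every plate library, and the microcarrier libraries overlapped with both. The share of all 252 miRNAs with perfusion wholly below plates was not counted, so nothing is read from that separation. miR-152 fell by 0.77 ± 0.246 (SE) in log2 level from plates to perfusion, in 4 of 4 donors, with an adjusted p of 0.0399 (limma). By comparison, 10.3% of the 252 miRNAs were called lower in that comparison. The call ended with library totals in place of size factors (adjusted p 0.0551) and in a fit of these 2 groups alone (adjusted p 0.0595). Leaving out plate donor 2, 3 or 4, any 1 of the 4 perfusion libraries or microcarrier donor 3 also ended it, at adjusted p-values of 0.0542 to 0.10. Microcarriers differed from plates by -0.41 ± 0.246 (SE) in log2 level (adjusted p 0.313) and perfusion from microcarriers by -0.36 ± 0.246 (adjusted p 0.328, limma).

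miR-148a-3p made up 89.5% ± 0.456 of the 3 family members' counts on plates, 91.2% ± 1.70 in perfusion and 87.7% ± 1.53 on microcarriers (n = 4, SD), so the family as a whole followed it. The family held 8.14% ± 1.19 of all counts on plates, 7.79% ± 1.09 in perfusion and 5.24% ± 0.636 on microcarriers (n = 4, SD). Per count of miR-148b-3p there were 36.0 ± 9.78, 26.0 ± 5.19 and 25.2 ± 1.97 counts of miR-148a-3p (SD, n = 4). Per count of miR-152 there were 11.5 ± 1.72, 18.4 ± 4.11 and 10.2 ± 2.25 (SD, n = 4). Over the 12 libraries those ratios ran from 18.5 to 48.9 and from 8.41 to 23.6, so the 3 near-identical miRNAs were not held at a fixed ratio. The sources used here do not state how reads matching more than 1 of them were assigned.

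The opposite arms of the hairpins were rare. miR-148a-5p, from the same precursor as miR-148a-3p, had 122 ± 34.6 normalized counts on plates, 96.9 ± 30.8 in perfusion and 103 ± 10.6 on microcarriers (n = 4, SD), from 32 to 328 reads per library. Its log2 differences were -0.35 ± 0.333 (SE) for perfusion against plates, -0.20 ± 0.333 for microcarriers against plates and -0.15 ± 0.333 for perfusion against microcarriers. None passed, with adjusted p-values of 0.489, 0.766 and 0.781 (limma). For each count of the 5p arm there were 762 ± 188 counts of the 3p arm on plates, 907 ± 259 in perfusion and 572 ± 85.4 on microcarriers (n = 4, SD). The plate ratios overlapped with those of both other cultures. Every microcarrier ratio, at no more than 637, was below every perfusion ratio, at no less than 665. That gap includes the microcarrier values on which miR-148a-3p was chosen, and it was not tested. miR-148b-5p stood on 7 to 65 reads per library, and its log2 differences in the same order were -0.34, 0.24 and -0.59 ± 0.388 (SE), with adjusted p-values of 0.572, 0.759 and 0.320 (limma).

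**Figure D3:**
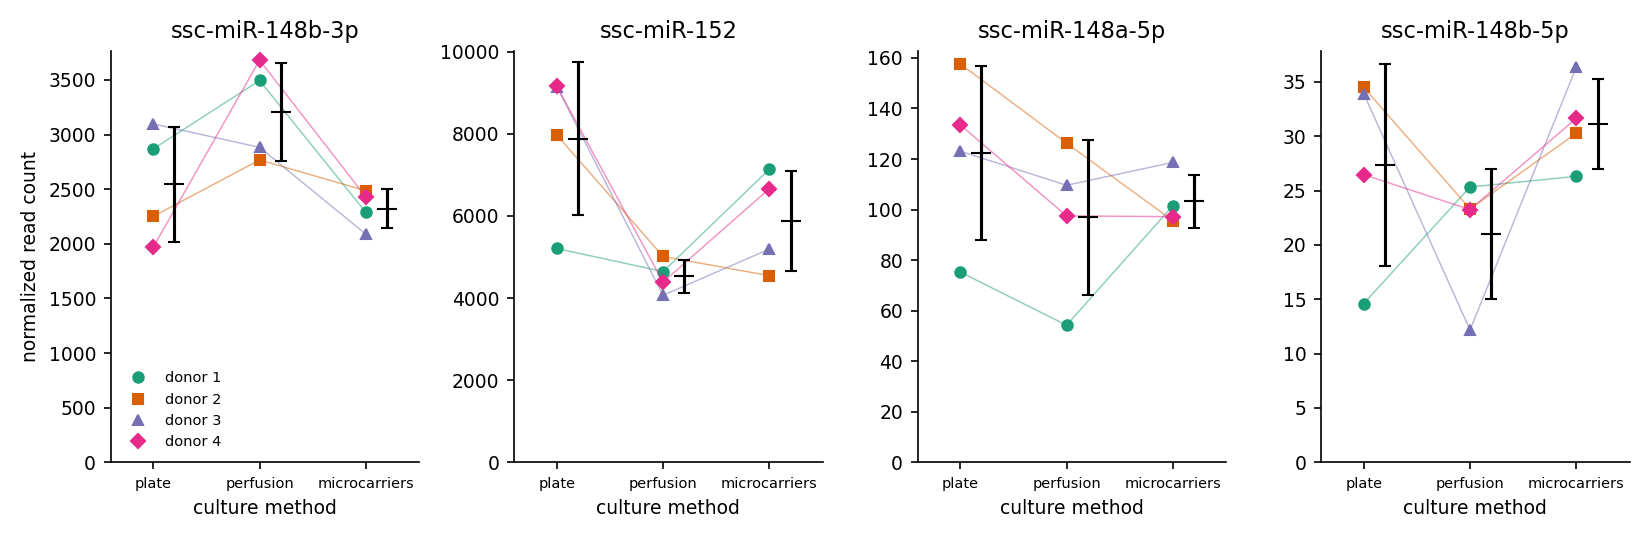
Normalized read counts of the other members of the family, miR-148b-3p and miR-152, and of the 5p arms of the miR-148a and miR-148b hairpins, by culture method, each on its own linear axis. Coloured points joined by thin lines are the 4 donors and black marks the mean ± SD of 4 libraries. miR-152 ran from 4066 to 5012 in perfusion and from 5205 to 9163 on plates.

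Across the 12 libraries, the profile most like that of miR-148a-3p was that of miR-196b-5p, a miRNA encoded in a HOX gene cluster. Its Pearson correlation with miR-148a-3p on log2(value + 1) was 0.820 (Spearman 0.846), among 142 miRNAs with a mean of at least 100 normalized counts. miR-196a (0.727), also encoded in HOX clusters, miR-186-5p (0.718), miR-143-3p (0.694) and miR-340 (0.667) came next. miR-196b-5p had a mean of 1012 ± 360 normalized counts on plates, 893.9 ± 109 in perfusion and 434 ± 107 on microcarriers (n = 4, SD). After each culture's mean was taken out, the correlation was 0.480 for miR-196b-5p, 0.455 for miR-196a, 0.666 for miR-186-5p, 0.272 for miR-143-3p and 0.348 for miR-340. The order changed with that step, since miR-378, outside these 5, then had 0.747, a value picked after it was seen. At the other end were miR-221-5p (-0.806), miR-23a (-0.729) and miR-27b-5p (-0.702). miR-221-5p had means of 366 ± 332, 329.5 ± 135 and 977 ± 267 (SD, n = 4), so it was high where miR-148a-3p was low. Of the 142, 74 had a positive correlation and the median was 0.0232. The points share libraries, size factors and the grouping by culture, on which miR-148a-3p was chosen, so these values are descriptions.

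**Figure D4:**
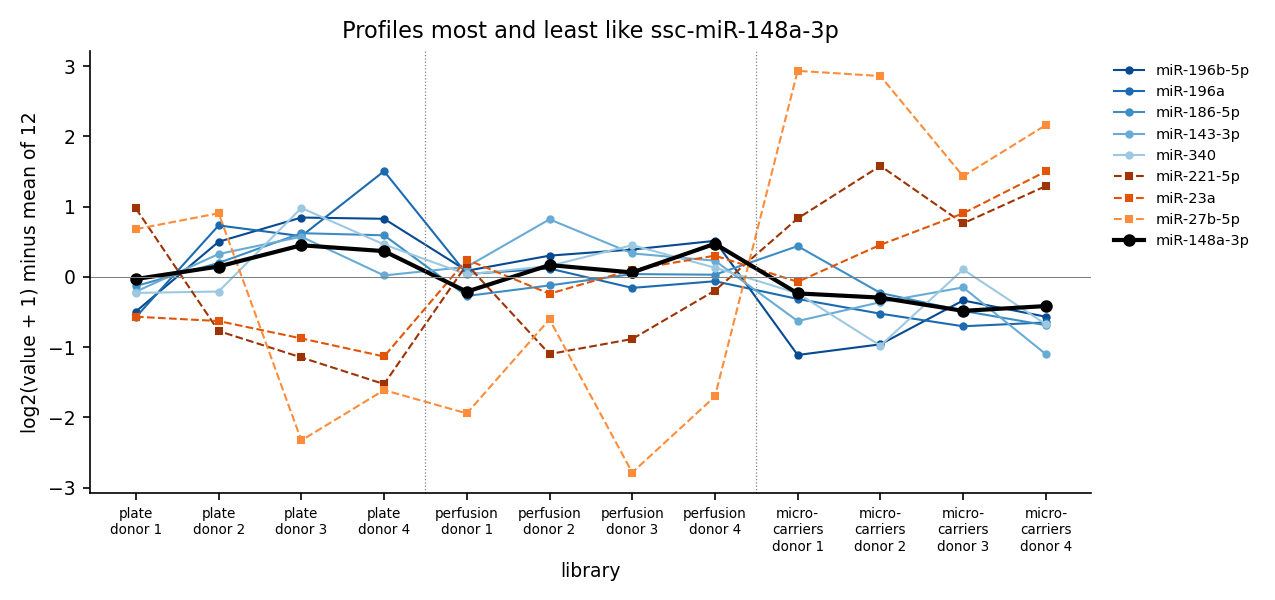
The log2(value + 1) of miR-148a-3p in each library minus its mean over the 12 libraries (black), with the 5 miRNAs most like it (blue, solid) and the 3 least like it (orange and brown, dashed). Dotted lines separate the culture methods; miR-196b-5p, at a Pearson correlation of 0.820, follows the black line, and miR-221-5p, at -0.806, runs against it.

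Of 9 other miRNAs known to repress DNA methyltransferases, 0 were called higher and 2 lower in perfusion than on plates, 0 were called between microcarriers and plates, and 1 was higher and 1 lower in perfusion than on microcarriers. Over all 252 miRNAs, 20.6%, 2.38% and 15.5% were called in these 3 comparisons, so the counts on the list stood near the background. The median log2 differences were 0.20, 0.12 and -0.36, beside -0.06, 0.11 and -0.07 for all 252. The 2 that fell in perfusion were miR-152 and miR-185, which represses DNMT1 in human cells. miR-185 went from 2794 ± 1007 normalized counts on plates to 1234 ± 103 in perfusion (SD, n = 4), a log2 difference of -1.11 ± 0.289 (SE, adjusted p 0.0164, limma). It was at 2515 ± 602 on microcarriers, and the difference of perfusion from microcarriers was -0.99 ± 0.289 (SE, adjusted p 0.0336, limma). That second call ended with library totals (adjusted p 0.0789) and without any 1 of the 4 perfusion libraries or microcarrier donor 1, 2 or 3 (adjusted p 0.0654 to 0.0890). miR-143-3p, a repressor of DNMT3A in human cells, rose by 0.94 ± 0.254 (SE) in log2 level from microcarriers to perfusion (adjusted p 0.0240, limma). Its call ended without perfusion donor 2 or 3 or microcarrier donor 1 or 4 (adjusted p 0.0515 to 0.0727).

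Of 13 other miRNAs described as promoting fat cell formation, 1 was higher and 1 lower in perfusion than on plates, 1 was higher on microcarriers than on plates, and 1 was higher and 1 lower in perfusion than on microcarriers. These counts are to be read against the same 20.6%, 2.38% and 15.5% over all 252 miRNAs. The median log2 differences were -0.21, 0.10 and -0.24. miR-210, a miRNA induced by low oxygen, had 146 ± 46.1 normalized counts on plates, 398 ± 59.9 in perfusion and 968 ± 428 on microcarriers (n = 4, SD). It rose by 2.65 ± 0.391 (SE) in log2 level from plates to microcarriers (adjusted p 0.00185, limma), where miR-148a-3p had its lowest values. From plates to perfusion it rose by 1.5 ± 0.391 (adjusted p 0.0164, limma), and without perfusion donor 1 that adjusted p was 0.0511. miR-30e-5p fell by 1.35 ± 0.287 (SE) in log2 level from plates to perfusion (adjusted p 0.00745, limma). It was lower in perfusion than on microcarriers by -0.94 ± 0.287 (adjusted p 0.0398), a call that ended with library totals and without any 1 of 7 libraries, perfusion donors 1, 3 and 4 and all 4 microcarrier libraries (adjusted p 0.0513 to 0.119). The rise of miR-143-3p is the other call on this list.

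Of 11 miRNAs described as restraining fat cell formation, 1 was higher and 2 lower in perfusion than on plates, 0 differed between microcarriers and plates, and 1 was higher and 1 lower in perfusion than on microcarriers. Beside the 20.6%, 2.38% and 15.5% called over all 252, these counts too stood near the background. The median log2 differences were -0.09, 0.32 and -0.35. miR-155-5p, best known from immune cells, rose by 1.74 ± 0.387 (SE) in log2 level from plates to perfusion (adjusted p 0.00784, limma). miR-27a was lower in perfusion than on microcarriers by -1.36 ± 0.293 (SE, adjusted p 0.00671) and than on plates by -1.03 ± 0.293 (adjusted p 0.0235, limma). The call against plates ended without plate donor 1 or 2 or perfusion donor 1 or 3 (adjusted p 0.0529 to 0.0810). let-7a was lower in perfusion than on plates by -0.99 ± 0.279 (SE, adjusted p 0.0230, limma), a call that ended without plate donor 1 or 4 or perfusion donor 1 or 3 (adjusted p 0.0529 to 0.0593). miR-145-5p, encoded beside miR-143, was higher in perfusion than on microcarriers by 1.59 ± 0.414 (SE, adjusted p 0.0210, limma). Its call ended without perfusion donor 1 or 3 or microcarrier donor 1 (adjusted p 0.0509 to 0.0576). Every call named from these 3 lists had the same direction in 4 of 4 donors.

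By group mean, the red blood cell, white blood cell, endothelial, liver and gut and serum lists below had their highest sums on microcarriers. The range of each of these sums on microcarriers overlapped that on plates. Single members spread widely there, as with the endothelial miR-126-3p at 2347 ± 2422 normalized counts on microcarriers (SD, n = 4). The muscle list had its highest mean on plates. The 3 red blood cell miRNAs summed to 2074 to 6742 normalized counts on microcarriers, 568 to 2528 on plates and 28.9 to 334 in perfusion. The 4 of white blood cells summed to 274 to 2110, 131 to 700 and 9.75 to 50.5 in the same order, with miR-223 listed at 0 in all 4 perfusion libraries. The 2 endothelial miRNAs summed to 945 to 6092, 583 to 2184 and 119 to 191. The 3 of liver and gut summed to 270 to 2446, 187 to 1241 and 20.3 to 64.1. The 3 of muscle summed to 237 to 1000, 750 to 1981 and 253 to 884, and 8 that are abundant in serum to 10983 to 17073, 9827 to 11041 and 8546 to 10058. None of the members of these lists was called between microcarriers and plates, where 2.38% of all 252 were. In perfusion, all 3 red blood cell, 4 white blood cell, 2 endothelial and 3 liver and gut miRNAs were called lower than on microcarriers, and 3, 4, 2 and 2 of them lower than on plates (limma). Over all 252 miRNAs, 25 were called lower and 14 higher in perfusion than on microcarriers. Against plates, 26 of the 252 (10.3%) were called lower in perfusion and 26 higher. Of the muscle miRNAs, 1 was called higher in perfusion than on microcarriers and 2 lower than on plates. Of the 8 abundant in serum, which include members of the other lists, 4 were called lower in perfusion than on microcarriers, and against plates 5 were lower and 1 higher. The part of other cell types and of serum in the values of miR-148a-3p was not tested.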

How the data were processed

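Per the labels' protocols, vesicle RNA was made into small RNA libraries by a NEBNext kit, and per the submitters' processing notes Bowtie was the aligner. Its version, the build, the annotation used and how reads were counted are not given here. The authors deposited a linear signal for each mature miRNA, headed as normalized read counts, whose 12 columns carry the library numbers of the samples' labels. In each library the values were whole multiples of a single step (within 0.001 of a read). These steps matched median-of-ratios size factors in proportion, which let reads be recovered. Between 1 and 28 miRNAs per library were listed at 0.

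Log2(value + 1) was fitted for all 252 miRNAs (1 or more in at least 4 libraries, which all passed) by limma 3.58.1 (R 4.3.3) with its trend option. The fit used culture method as its factor and all 12 libraries, with Benjamini-Hochberg adjustment of p over 252. Donors were tested with donor and culture method in 1 fit. Log2 differences are of value + 1. The design foresaw limma for normalized values and a count test for raw counts, and limma was used because the table holds normalized values. The fit was tested on simulated data. Shares were compared by exact permutation, with Python 3.11.15, NumPy 2.4.6, SciPy 1.17.1 and pandas 2.3.3. Same-numbered libraries come from the same donor, per the labels' titles, and their deviations from the culture means correlated at 0.0205 to 0.673 over 12 pairs, so a fit with donor as a block is the alternative.

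The miRNAs named were miR-148a-3p, its family and the opposite arms, the rows beside it by share, the 5 largest differences of share each way, the 5 most and 3 least correlated rows, and called members of the lists. The other alternatives were library totals, other pseudocounts and filters, a fit of 2 groups, limma-voom on recovered reads, other denominators of the share and each library left out. The member, the lists and these rules were chosen with earlier results of these data known. Mature sequences were not used here.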

Additional observations from a re-analysis of the deposited data

Results flagged for a closer look

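Of 66 groups of 4 libraries looked at (levels and shares of the 5 family and opposite-arm miRNAs, and ratios and family shares), 2 held a library far from the other 3, and chance flags about 1 in 20. miR-148b-5p was at 12.2 normalized counts in perfusion donor 3, from 9 reads, while the nearest other perfusion library had 23.2. On microcarriers its share was 0.00299% in donor 3, and the nearest other library had 0.00230%. No group of miR-148a-3p itself was set apart in this way.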

How the results depend on the processing

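Every microcarrier library lay below every other library in level and share of miR-148a-3p. Leaving out a library could therefore not change the sign of its differences between microcarriers and the other cultures. Over the 20 alternatives the log2 difference of miR-148a-3p was -0.68 to -0.52 for microcarriers minus plates and 0.36 to 0.62 for perfusion minus microcarriers. A donor block, other filters and a fit of 2 groups could not move these differences, which stayed at -0.59 and 0.48. The ranges describe values on which miR-148a-3p was chosen and do not test them. Library totals moved the median of all 252 miRNAs by 0.14 in perfusion minus microcarriers. Relative to that median miR-148a-3p stood at 0.55 under either scaling. Perfusion minus plates ran from -0.23 to 0.000746 with 1 library left out, positive only without perfusion donor 1, and passed no test. Its share difference ran from -0.655 to 0.318 points with 1 library left out and was 0.481 points without miR-21-5p and 0.838 per 100 counts outside the 10 leading miRNAs. Paired by donor, the share difference of -0.175 points had an exact sign-flip p of 0.75, in a test that with 4 donors cannot go below 0.125. The donor range of miR-148a-3p was 0.168 to 0.486 in log2 over the libraries left out.

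With donor as a replicate block, the calls between microcarriers and plates went from 6 to 23 and between perfusion and microcarriers from 39 to 59, and a fit of 2 groups gave 3 for the former. With 1 library left out, calls ranged from 29 to 55 for perfusion against plates (52 with all), with 29 without perfusion donor 1 and 30 without donor 3. For microcarriers against plates they ranged from 3, without plate donor 3 or 4, to 12, without plate donor 1. For perfusion against microcarriers they ranged from 22 to 49, with 24, 25 and 22 without perfusion donors 1, 3 and 4. For donors they ranged from 10, without microcarrier donor 3, to 38, without perfusion donor 1 (21 with all, 13 without perfusion donor 3). Both low arms changed sign: miR-148a-5p, perfusion minus microcarriers, ran from -0.30 to 0.10 (positive without perfusion donor 1), and miR-148b-5p, microcarriers minus plates, from -0.0206 to 0.37 (negative without plate donor 1). The cause of these changes was not tested. edgeR on recovered reads was foreseen and not run, since the table holds too few low values to check the recovered reads on their own, and limma-voom was used on them instead. The 5p arms stood on few reads, 7 to 328 per library.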
